A study of Mus musculus with 4 samples.

Results

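The genes described here are 10 genes of lysophosphatidic acid (LPA) and sphingosine 1-phosphate (S1P) signalling, chosen by their symbols among the 24421 symbols of a table of read counts. The genes, and the lists used below, were chosen with earlier results of these data known. The 10 genes are Enpp2, the receptor genes Lpar1, Lpar2, Lpar4, Lpar6, S1pr1, S1pr2 and S1pr3, and the kinase genes Sphk1 and Sphk2. All 10 symbols were found, and 9 of the genes reached 2 CPM (reads of a gene scaled by the total of its library) in at least 2 libraries and were tested. The exception was Lpar2. The table holds bulk RNA sequencing of fibro-adipogenic progenitors (FAPs), stromal progenitor cells of skeletal muscle, from 2 wild-type mice that received a CSF1R inhibitor for 3 weeks and then a regular diet for 3 days. From each mouse, PI- CD31- CD45- Sca1+ cells were sorted into DPPIV- FAPs and DPPIV+ FAPs (n = 2 mice per population, 4 libraries), where DPPIV is the surface peptidase encoded by Dpp4. Both populations thus come from mice whose resident macrophages had been depleted by the inhibitor, and no library came from untreated muscle. The study compared the populations to characterise DPPIV+ FAPs as a candidate niche of self-renewing muscle macrophages.

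LPA and S1P are small phospholipids that act outside the cell on G protein-coupled receptors. LPA is made in extracellular fluid mainly by autotaxin, the secreted lysophospholipase D encoded by Enpp2, while S1P is made inside the cell by the sphingosine kinases SPHK1 and SPHK2 and is then exported. The receptors couple to several G protein families and, through them, act on calcium, cyclic AMP and the cytoskeleton. LPA acts on fibroblasts as a growth and contraction signal, and S1P is known for the control of vascular barriers, vascular tone and lymphocyte traffic.

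Most of the S1P genes were lower in DPPIV+ FAPs than in DPPIV- FAPs, while 1 LPA receptor gene was slightly higher. Of the 5 S1P genes, S1pr1, S1pr2, S1pr3 and Sphk1 fell, with log2 fold changes (DPPIV+ over DPPIV-) from -0.42 to -1.41, and Sphk2 did not pass the threshold. Of the LPA genes, Lpar1 rose by 0.22 on the log2 scale, and Enpp2, Lpar4 and Lpar6 did not pass it. In all, 4 of the 9 genes tested were lower and 1 was higher at an adjusted p under 0.05 (edgeR's quasi-likelihood test with mouse in the model and Benjamini-Hochberg adjustment over 11588 genes), where 17.2% of all genes tested were lower, 15.9% higher and 33.0% either. DESeq2's Wald test called 3 lower and 0 higher, against 8.59% and 7.97% of all genes tested, and lost S1pr1 and Lpar1. Lpar1 was also lost in edgeR without mouse in the model. S1pr3 and Sphk1 were lower by more than 2-fold in the main fit, as were 4.88% of all genes tested. The libraries of the populations did not overlap for 4 genes that were lower and for 1 that was higher, against 28.5% and 27.8% of all genes tested, and overlapped for 4, against 43.7%. The median log2 fold change was -0.18 over the 9 genes and -0.00 over all genes tested, and the median of its size was 0.22 and 0.16. Standard errors and p-values in edgeR rest on the spread of genes at like abundance, as the prior degrees of freedom were infinite. In these bulk libraries, a lower value from fewer cells that express a gene and one from less RNA per cell cannot be told apart.

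**Figure D1:**
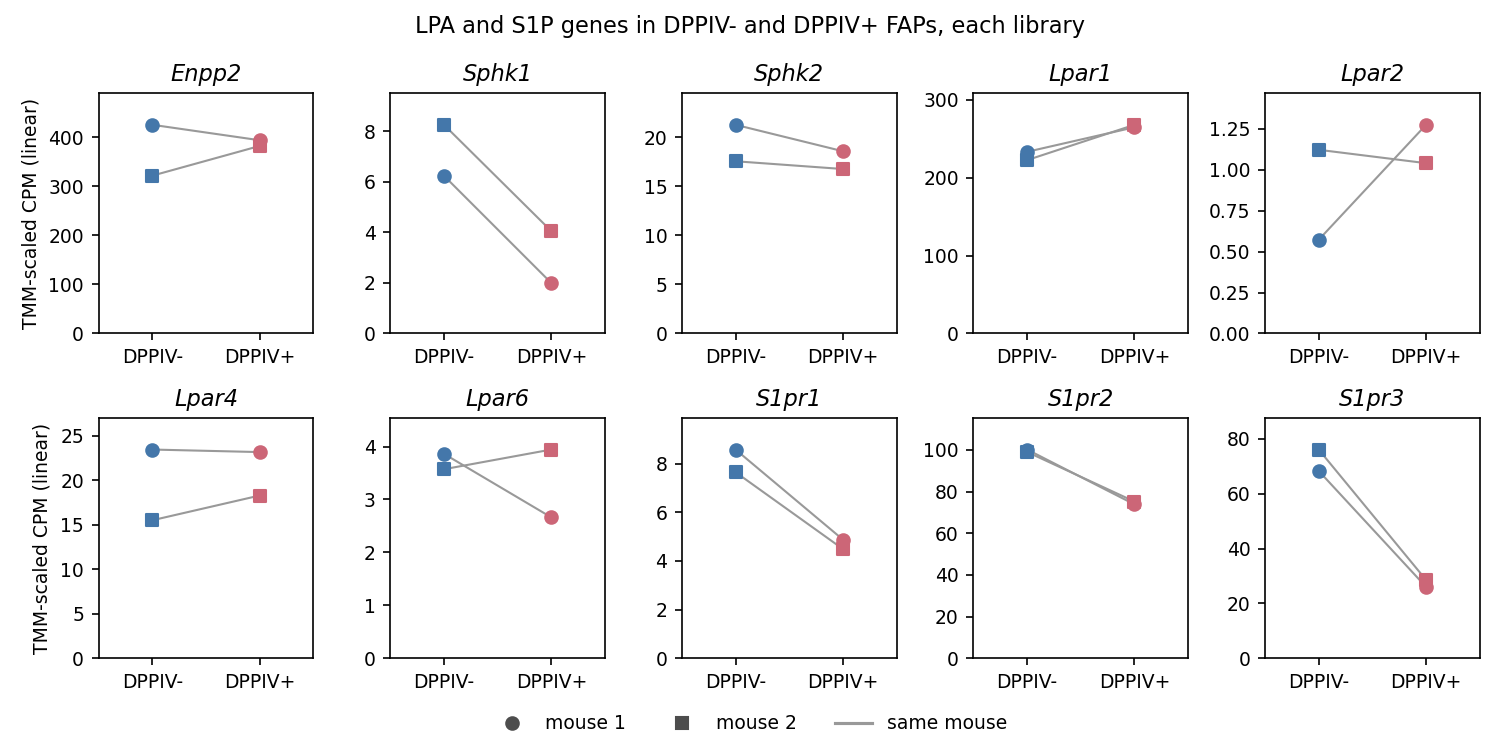
CPM after TMM scaling of the 10 genes in each library, on linear axes that start at 0 and differ between panels, with DPPIV- FAPs in blue, DPPIV+ FAPs in red, circles for mouse 1, squares for mouse 2 and a line joining the libraries of each mouse. Sphk1, S1pr1, S1pr2 and S1pr3 were lower and Lpar1 higher in DPPIV+ FAPs of both mice. Sphk2 was also lower in both mice, but its populations overlapped. Enpp2, Lpar2, Lpar4 and Lpar6 went opposite ways in the 2 mice.

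The libraries held between 18240110 and 20879405 reads counted on genes, in which 3 reads, the limit that a count of 0 allows, correspond to between 0.144 and 0.164 CPM (counting error only, as no molecular identifiers are described). Dpp4 had 89.6 and 39.6 CPM in DPPIV- FAPs of mice 1 and 2 and 727 and 574 CPM in DPPIV+ FAPs, so it was higher after the DPPIV+ sort in both mice. Of the 7 FAP markers examined, 7 were well detected, among them Pdgfra with at least 1157 CPM in every library, while 2 were higher and 5 lower in DPPIV+ FAPs. Unless DESeq2 is named, these marker counts are edgeR calls, where 15.9% of all genes tested were higher and 17.2% lower. Markers of other cells were detected as well. Summed over the list, blood endothelial markers had 249 and 184 CPM in DPPIV- FAPs and 503 and 459 CPM in DPPIV+ FAPs, where Tek alone rose, from 186 and 149 to 466 and 426 CPM, and 4 of 6 fell. Lymphatic endothelial markers summed to between 3.72 and 6.99 CPM, with Ccl21a at 0 in every library, and neither of the 2 tested passed. Haematopoietic markers summed to between 180.4 and 318 CPM, with 4 of 6 lower in edgeR and 0 by DESeq2. The libraries of 4 of these 6 overlapped, against 43.7% of all genes tested. Mural cell markers summed to 121 and 123 CPM in DPPIV- FAPs and 51.1 and 63.4 CPM in DPPIV+ FAPs, with 5 of 6 lower. Tenocyte markers summed to between 1211 and 2318 CPM with 3 of 4 higher and Thbs4 lower, although its libraries overlapped. Satellite cell markers summed to at most 1.28 CPM, and none of the 4 was tested. Myofibre markers summed to between 39.6 and 62.8 CPM and glial markers to between 12.3 and 20.4 CPM, with 0 of 4 and 1 of 3 tested past the threshold, and perineurial markers to between 14.3 and 18.5 CPM, with Cldn1 lower and Slc2a1 not past it.

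S1pr3, a receptor that couples to Gi, Gq and G12/13 proteins, showed the largest fitted difference of the 9 genes tested, of a size that lay within the 95% interval of Sphk1. It had 68.3 and 76.1 CPM in DPPIV- FAPs of mice 1 and 2, and 26 and 28.5 CPM in DPPIV+ FAPs. The DPPIV- libraries were far above the DPPIV+ libraries, and within each population mouse 2 was slightly higher. The mean fell from 72.2 ± 5.51 to 27.3 ± 1.79 CPM (SD, n = 2), which was 2.65-fold lower in the fit (log2 fold change -1.41, standard error 0.08, adjusted p = 2.04e-73, edgeR's quasi-likelihood test). Without mouse in the model, the adjusted p of S1pr3 in edgeR was 0.000107. The log2 ratios of the mice were nearly equal, -1.39 in mouse 1 and -1.42 in mouse 2. S1pr3 lies on chromosome 13 of GRCm38 from 51408639 to 51422797 (ENSMUSG00000067586.4), and 45 of its exon bases are shared with Gm32834 on the opposite strand, whose reads are not used here.

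S1pr2, the receptor with the strongest coupling to G12/13 proteins, had more reads than S1pr3 but a smaller difference. It had 100.2 and 99.0 CPM in DPPIV- FAPs and 73.8 and 75.2 CPM in DPPIV+ FAPs of mice 1 and 2. The mice were almost identical within each population, and the populations stood clearly apart. Its log2 fold change was -0.42 (standard error 0.07, adjusted p = 1.81e-09 in edgeR), that is, 1.34-fold lower in DPPIV+ FAPs, and it did not pass a test against a change of 1.5-fold (adjusted p = 1 in edgeR's test against a fold threshold). S1pr2 lies on chromosome 9 from 20962361 to 20976781 (ENSMUSG00000043895.6).

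S1pr1, the Gi-coupled receptor best known from endothelium and lymphocytes, had the fewest reads of the 3 S1P receptor genes tested. The DPPIV- libraries of mice 1 and 2 held 180 and 150 reads of it, or 8.58 and 7.65 CPM, and the DPPIV+ libraries 88 and 82 reads, or 4.88 and 4.49 CPM. Both DPPIV- libraries were above both DPPIV+ libraries. The log2 fold change was -0.79 (standard error 0.19, adjusted p = 0.000182, edgeR), and DESeq2's Wald test gave an adjusted p of 0.0873. In the model without mouse, leaving out 1 library at a time, its adjusted p in edgeR was 0.0734 without the DPPIV- library of mouse 1, 0.0669 without the DPPIV+ library of mouse 1 and 0.106 without the DPPIV+ library of mouse 2. S1pr1 lies on chromosome 3 from 115710433 to 115715072 (ENSMUSG00000045092.8).

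In edgeR 4 of 6 blood endothelial and 5 of 6 mural markers were lower in DPPIV+ FAPs, as were 17.2% of all genes tested. DESeq2 called 0 and 3 of them lower (8.59% of all genes). The libraries did not overlap, on the lower side, for 1 endothelial and 5 mural markers (28.5% of all genes tested). Pecam1, the CD31 gene of endothelium, had 20.4 and 11.2 CPM in DPPIV- FAPs and 11.7 and 11.2 CPM in DPPIV+ FAPs. Tek, of the same list, went the other way, with 186 and 149 against 466 and 426 CPM, and Emcn did not pass the threshold. S1pr1 had 8.58 and 7.65 CPM against 4.88 and 4.49 CPM in the same libraries. The mural marker Cspg4 had 63.3 and 75.8 CPM in DPPIV- FAPs and 22.6 and 35.9 CPM in DPPIV+ FAPs, and Notch3 had 22.7 and 21.6 against 6.87 and 7.78 CPM. Rgs5, another mural marker, had 13.7 and 9.44 against 9.31 and 7.89 CPM, and Myh11 did not pass the threshold. The part of mural or endothelial RNA in the S1pr1, S1pr2 and S1pr3 values was not tested.

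Sphk1, the largely cytoplasmic kinase that makes S1P near the plasma membrane, was low in all libraries and fell in DPPIV+ FAPs. Its reads numbered 131 in mouse 1 and 162 in mouse 2 for DPPIV- FAPs, compared with 36 and 74 for DPPIV+ FAPs. In CPM these were 6.25 and 8.26 against 2.00 and 4.05. The populations did not overlap, but mouse 2 was higher than mouse 1 in both, and the log2 ratio was -1.64 in mouse 1 and -1.03 in mouse 2. The fitted log2 difference was -1.29 (standard error 0.22, adjusted p = 2.34e-08 in edgeR, and 0.0045 by DESeq2's Wald test). Without the DPPIV+ library of mouse 1, which had the fewest reads, it was -0.84 with an adjusted p of 0.125 in edgeR without the mouse term, and without the DPPIV- library of mouse 2 it was -1.04 with an adjusted p of 0.0586. Sphk1 lies on chromosome 11 from 116530925 to 116536674 (ENSMUSG00000061878.15), with 192 exon bases shared with Gm29292 on the opposite strand.

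Sphk2, the kinase found largely in the nucleus and on internal membranes, did not pass the threshold. It had 21.3 and 17.5 CPM in DPPIV- FAPs and 18.6 and 16.8 CPM in DPPIV+ FAPs, and the populations overlapped. The log2 fold change was -0.13, with a 95% interval from -0.35 to 0.08 (adjusted p = 0.404, edgeR), which does not show that the populations were alike. Sphk2 lies on chromosome 7 from 45709467 to 45718002 (ENSMUSG00000057342.15). It shares 373 exon bases with Rpl18 and 539 with Dbp, both on the opposite strand, with between 3631 and 4055 and between 231 and 390 reads per library, and whether the counting used strand is not given in the sources used here, so some of its reads may belong to them.

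S1pr2, S1pr3 and Sphk1 were lower in DPPIV+ FAPs, by unlike amounts, and their promoters are shown here. S1pr1 also fell, but no promoter of it was available. Each promoter runs from 250 bases before to 50 bases after the most upstream start site of the gene in RefSeq on GRCm38.p6. It is read 5′ to 3′ on the strand of the gene. Capitals mark matches, on either strand, to 4 short motifs, namely the GC box GGGCGG, the TATA box TATAAA, the AP-1 site TGANTCA and the TEAD site CATTCC, none of which overlap here.
S1pr2 promoter, chr9:20976744-20977043, minus strand: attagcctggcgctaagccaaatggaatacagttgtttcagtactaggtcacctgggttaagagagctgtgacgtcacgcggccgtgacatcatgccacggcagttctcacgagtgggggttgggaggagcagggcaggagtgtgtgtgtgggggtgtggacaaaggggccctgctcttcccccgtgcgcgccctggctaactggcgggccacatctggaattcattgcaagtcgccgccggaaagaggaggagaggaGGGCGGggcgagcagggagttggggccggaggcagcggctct
S1pr3 promoter, chr13:51408368-51408667, plus strand: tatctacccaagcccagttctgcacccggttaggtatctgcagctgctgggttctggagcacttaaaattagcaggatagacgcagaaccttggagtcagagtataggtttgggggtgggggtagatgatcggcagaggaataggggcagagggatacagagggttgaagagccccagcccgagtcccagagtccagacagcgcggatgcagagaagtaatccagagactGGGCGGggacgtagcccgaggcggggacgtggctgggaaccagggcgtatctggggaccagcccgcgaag
Sphk1 promoter, chr11:116530850-116531149, plus strand: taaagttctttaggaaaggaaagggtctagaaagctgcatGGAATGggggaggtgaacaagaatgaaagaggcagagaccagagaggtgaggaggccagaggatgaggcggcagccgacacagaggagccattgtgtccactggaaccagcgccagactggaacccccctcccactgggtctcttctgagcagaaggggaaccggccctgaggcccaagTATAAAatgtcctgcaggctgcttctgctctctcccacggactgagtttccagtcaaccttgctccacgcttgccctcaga
Both receptor promoters held 1 GC box, which began at 8 in S1pr2 and at -20 in S1pr3 relative to the start site, and 35.7% of 32851 RefSeq promoters of this length held one. The Sphk1 promoter had no GC box. It held a TATA box that began at -31, as 13.6% of promoters did, and a TEAD site that began at -210, as 14.7% did. The AP-1 site, found in 7.81% of promoters, was in none of these windows. No motif was present in all 3. Among the 8 of the 10 genes that the table holds, 6 had a GC box in this window, and Enpp2 and S1pr1 are not in it. A match of letters is no binding site, and Sphk1 has 5 start sites in the table, of which only the first is shown.

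Turning to LPA, Enpp2 was abundant and showed no change that both mice shared. It had 426 and 322 CPM in DPPIV- FAPs of mice 1 and 2 and 394 and 382 CPM in DPPIV+ FAPs. The DPPIV+ libraries lay between the DPPIV- libraries, so the log2 ratio was -0.11 in mouse 1 and 0.25 in mouse 2. Its log2 fold change was 0.07, with a 95% interval from -0.07 to 0.20 (adjusted p = 0.509, edgeR). Enpp2 lies on chromosome 15 from 54838901 to 54952892 (ENSMUSG00000022425.16) and shares 345 exon bases with Gm26684 on the opposite strand.

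Lpar1, the LPA receptor most associated with fibroblasts, was the only gene of the 9 tested that rose. It had 233 and 223 CPM in DPPIV- FAPs and 265 and 268 CPM in DPPIV+ FAPs of mice 1 and 2. The populations did not overlap and the spread within each was small. The mean went from 228 ± 7.55 to 266 ± 2.26 CPM (SD, n = 2), which was 1.17-fold higher (log2 fold change 0.22, standard error 0.07, adjusted p = 0.00354, edgeR). This call was lost in DESeq2's Wald test (adjusted p = 0.0999) and in edgeR without mouse in the model (adjusted p = 0.1004), also when any 1 library was left out. Lpar1 lies on chromosome 4 from 58435255 to 58553898 (ENSMUSG00000038668.14).

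Lpar4 and Lpar6 belong to the P2Y-like LPA receptors, which are only distantly related to Lpar1. Lpar4 had 23.5 and 15.5 CPM in DPPIV- FAPs and 23.2 and 18.3 CPM in DPPIV+ FAPs. Mouse 1 was higher than mouse 2 in both populations, which overlapped. Its log2 fold change was 0.10 with a 95% interval from -0.11 to 0.31 (adjusted p = 0.545, edgeR). Lpar6 had 3.86 and 3.57 CPM in DPPIV- FAPs and 2.66 and 3.94 CPM in DPPIV+ FAPs, and its log2 fold change was -0.18 with an interval from -0.65 to 0.28 (adjusted p = 0.630, edgeR). The ratio of Lpar6 was below 0 in mouse 1 (-0.54) and above 0 in mouse 2 (0.14), so nothing can be said of its direction. Lpar4 lies on chromosome X from 106920625 to 106933900 (ENSMUSG00000049929.7), and Lpar6 on chromosome 14 from 73237895 to 73243294 (ENSMUSG00000033446.7), where 408 of its exon bases are shared with Rb1 on the opposite strand, a gene with between 282 and 412 reads per library. Lpar2, on chromosome 8 from 69822429 to 69831102 (ENSMUSG00000031861.15), had 12 and 22 reads in DPPIV- FAPs and 23 and 19 reads in DPPIV+ FAPs, under the filter, and was not tested.

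**Figure D2:**
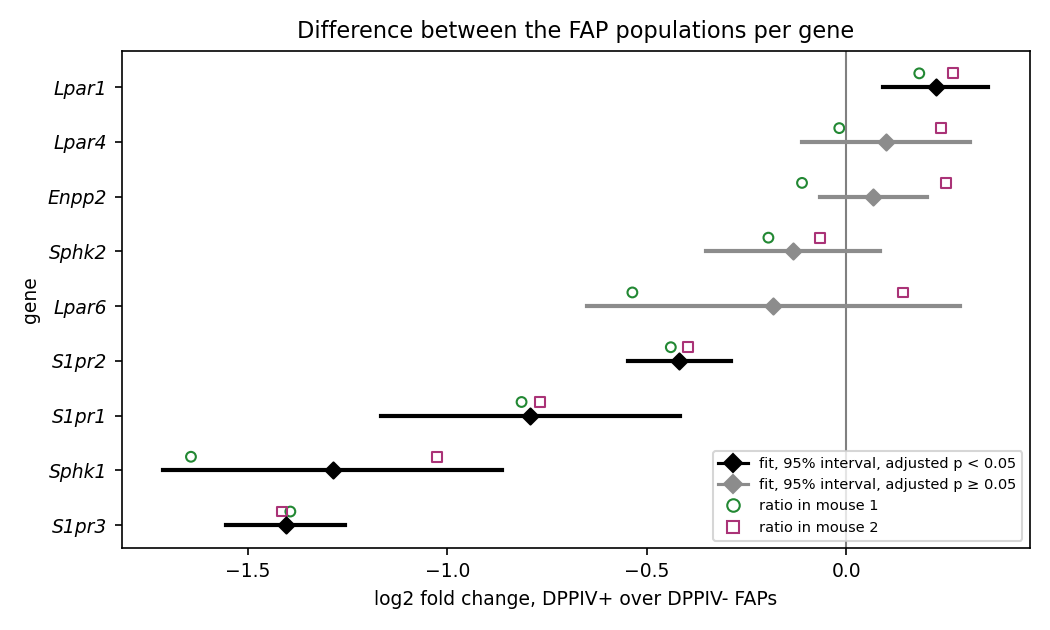
Log2 fold change of DPPIV+ over DPPIV- FAPs for the 9 genes tested, with diamonds and bars for the fit and its 95% interval (black where the adjusted p was under 0.05, grey otherwise), and open circles and squares for the log2 ratio in mouse 1 and mouse 2. S1pr3 and S1pr2 had nearly the same ratio in both mice, Sphk1 had ratios of -1.64 and -1.03, and the ratios of Enpp2, Lpar4 and Lpar6 lay on both sides of 0.

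Between the mice, 3 of the 9 genes differed in the same model, against 8.98% of all genes tested (edgeR's quasi-likelihood test, adjusted p under 0.05 for the mouse term). Enpp2 and Lpar4 were lower in mouse 2, with log2 differences of -0.22 (adjusted p = 0.0162) and -0.47 (adjusted p = 0.000423), and Sphk1 was higher by 0.62 (adjusted p = 0.0418, all in edgeR). In Enpp2 nearly all of this came from the DPPIV- libraries, where mouse 2 differed from mouse 1 by -0.40, compared with -0.04 in the DPPIV+ libraries. DESeq2 called 0 of the 9 for the mouse term, with 2 at an unadjusted p under 0.05.

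Per length of exon, the levels fell into a clear order. In DPPIV- FAPs Enpp2 had 64.7 CPM per kb and Lpar1 53.1, followed by S1pr3 with 16.2, S1pr2 with 12.5, Sphk2 with 4.67, Lpar4 with 4.60, S1pr1 with 2.66, Sphk1 with 1.52, Lpar6 with 0.688 and Lpar2 with 0.145. Sphk2 and Lpar4 overlapped between the libraries and cannot be ordered. In DPPIV+ FAPs Enpp2 had 67.2 and Lpar1 62.1 CPM per kb, and S1pr2 with 9.35 stood above S1pr3 with 6.11, the reverse of their order in DPPIV- FAPs. Below them, Lpar4 with 4.89 and Sphk2 with 4.25 overlapped, S1pr1 had 1.54, Sphk1 with 0.633 and Lpar6 with 0.611 overlapped, and Lpar2 had 0.198. Lengths are those of all annotated exons in GENCODE M21, so the order of 2 genes near each other rests on the annotation, but the change in a ratio between libraries does not. There were 0.682 and 0.769 reads of S1pr3 per read of S1pr2 in DPPIV- FAPs of mice 1 and 2, and 0.352 and 0.379 in DPPIV+ FAPs.

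Summed over receptors, CPM of the S1P receptors were 177 and 183 in DPPIV- FAPs and 105 and 108 in DPPIV+ FAPs of mice 1 and 2. The CPM of the 4 LPA receptor genes summed to 261 and 243 in DPPIV- FAPs and to 292 and 291 in DPPIV+ FAPs. The sums thus moved in opposite directions in both mice, with log2 ratios of 0.16 and 0.26 for LPA and -0.76 and -0.76 for S1P receptors. The sums were not tested. The LPA sum was mostly Lpar1, whose call was lost in DESeq2 and in edgeR without mouse in the model. Per length, Lpar1 made up between 89.5% and 92.3% of the LPA receptor total in the 4 libraries. Of the S1P receptor total, S1pr3 made up 49.9% and 53.3% in DPPIV- FAPs and 34.9% and 37.0% in DPPIV+ FAPs, S1pr2 made up 40.9% and 38.8% against 55.5% and 54.5%, and S1pr1 between 7.85% and 9.60% in every library. Of the kinase total, Sphk1 made up 20.4% and 29.1% in DPPIV- FAPs and 8.56% and 17.4% in DPPIV+ FAPs.

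**Figure D3:**
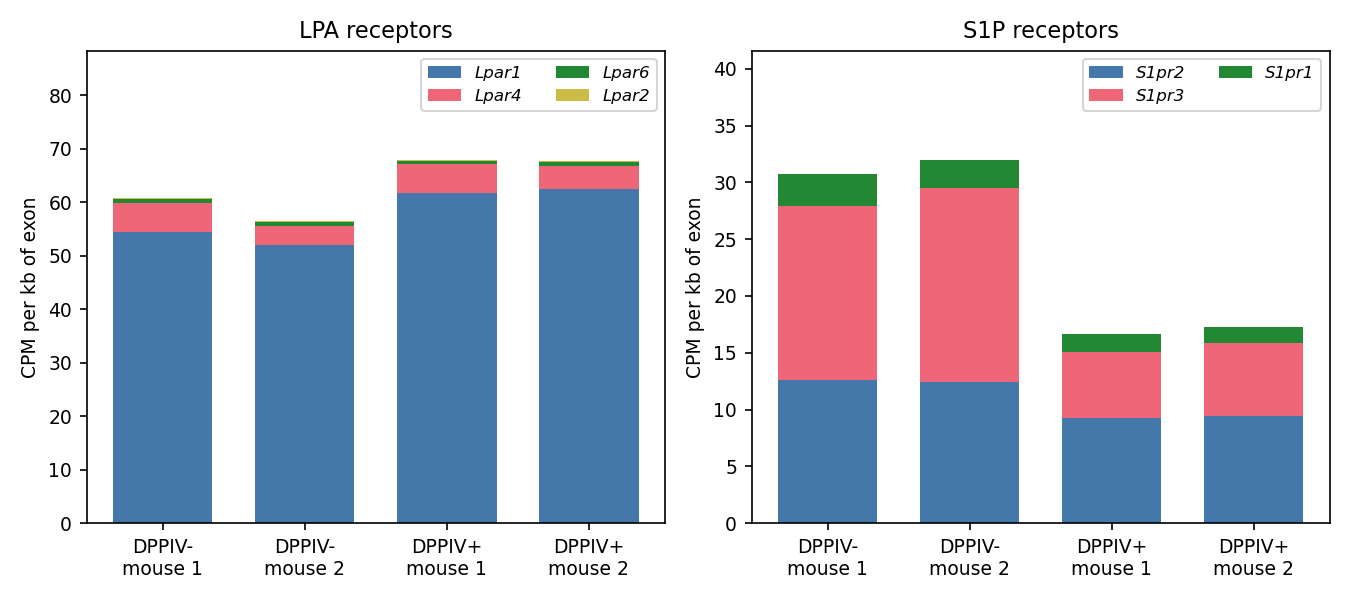
Stacked levels of the LPA receptor genes (left) and S1P receptor genes (right) in each of the 4 libraries, in CPM per kb of exon on linear axes from 0 that differ between the panels. Lpar1 made up at least 89.5% of each LPA bar, and the S1P bars were lower in DPPIV+ FAPs, mainly through S1pr3.

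The remaining receptors of both lipids were at or near the limit of detection. Lpar3 had between 3 and 7 reads per library and Lpar5 between 2 and 4. S1pr4, a receptor of blood cells, had 1 and 3 reads in DPPIV- FAPs and 6 and 6 reads in DPPIV+ FAPs, and S1pr5 had 0 reads in every library, which allows up to 0.164 CPM.

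Beyond the 10 genes, a list of 77 other genes of LPA and S1P metabolism, transport and signalling held 57 that were tested. Of these, 14 rose and 11 fell in DPPIV+ FAPs, and their median log2 fold change was 0.05 (edgeR's quasi-likelihood test as above, against 15.9% higher and 17.2% lower over all genes). Without mouse in the model 8 rose and 6 fell (8.64% and 9.66% of all genes), and by DESeq2 also 8 and 6 (7.97% and 8.59% of all genes). The genes of metabolism and transport described next made up 32 of the 57, with 8 higher and 5 lower in the model with mouse, and the remaining 25 are not described here.

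The lipid phosphate phosphatases, membrane enzymes that dephosphorylate extracellular LPA and S1P, moved in opposite directions. Plpp3, listed as Ppap2b, had 917 and 810 CPM in DPPIV- FAPs and 1954 and 1632 CPM in DPPIV+ FAPs of mice 1 and 2. It had more reads than any of the 10 genes, and rose by 1.05 on the log2 scale (standard error 0.07, adjusted p = 1.88e-45, edgeR). Plpp1, listed as Ppap2a, had 58.2 and 64.6 against 23.4 and 32.9 CPM, a log2 fold change of -1.14 (adjusted p = 8.46e-46, edgeR). Plpp2, listed as Ppap2c, had 72 and 90 reads against 14 and 19 (log2 fold change -2.14, adjusted p = 1.03e-11, edgeR). The libraries of the populations did not overlap for any of the 3. Of all genes tested, 27.8% did not overlap on the higher side and 28.5% on the lower side. The 3 genes summed to 979 and 880 CPM in DPPIV- FAPs and 1978 and 1666 CPM in DPPIV+ FAPs, nearly all of it Plpp3.

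Among the LPA and phosphatidate enzymes, which include these phosphatases, 2 of 6 tested rose and 2 fell, against 15.9% and 17.2% of all genes. The other riser was Pla1a, a secreted phospholipase A1 that makes lysophosphatidylserine rather than LPA, with 221 and 160.2 CPM in DPPIV- FAPs and 773 and 683 CPM in the DPPIV+ population (log2 difference 1.95, adjusted p = 8.81e-158, edgeR). Acp6 and Agk, an LPA phosphatase and a mitochondrial lipid kinase, did not pass the threshold, and Liph, an LPA-making phospholipase, had at most 4 reads in a library. Of the enzymes that break down S1P or set sphingosine levels, none of 5 tested rose and 1 fell, against 17.2% of all genes. This was Sgpl1, the S1P lyase, with 109 and 114 CPM in DPPIV- FAPs and 94.7 and 102.0 CPM in the DPPIV+ population (log2 difference -0.18, adjusted p = 0.0203 in edgeR, 0.179 without mouse in the model and 0.402 in DESeq2). The phosphatase gene Sgpp1 and the ceramidase genes Asah1, Asah2 and Acer3 had adjusted p between 0.0573 and 0.714 in edgeR. Spns2, the exporter of S1P, was under the filter, with 64 and 38 reads for DPPIV- FAPs against 31 and 21 for DPPIV+ FAPs, and was named after its values were seen.

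In ceramide and sphingolipid synthesis, 5 of 19 genes tested rose and 2 fell in edgeR, against 15.9% and 17.2% of all genes. By DESeq2 3 of the 19 rose and 1 fell, against 7.97% and 8.59% of all genes. Smpd3, the neutral sphingomyelinase that releases ceramide, went from 44.1 and 29.5 CPM in DPPIV- FAPs to 262 and 190.02 CPM in DPPIV+ FAPs of mice 1 and 2, a log2 fold change of 2.62 (adjusted p = 3.75e-272 in edgeR and 0.000205 without mouse in the model). That was the largest change among the 57 genes tested. Sptlc2, a subunit of the enzyme that starts sphingolipid synthesis, rose by 0.62 on the log2 scale (adjusted p = 2.98e-18, edgeR). Of the ceramide synthases, which differ in the acyl chains they prefer, Cers6 rose by 0.69 (adjusted p = 3.30e-10) and Cers4 fell by 0.58 (adjusted p = 6.40e-06, both edgeR, log2 scale). The ceramide kinase gene Cerk and Ormdl2, which restrains sphingolipid synthesis, also rose in edgeR (log2 fold change 0.27 and 0.43), and the acid sphingomyelinase gene Smpd1 fell (-0.18), but by DESeq2 none of the latter 3 passed (adjusted p = 0.216, 0.148 and 0.536). Of the carriers and transporters, 1 of 2 tested rose, against 15.9% of all genes. It was Abca1, a lipid exporter best known for cholesterol, which rose by 0.48 on the log2 scale (adjusted p = 4.74e-12 in edgeR and 0.0837 without mouse in the model).

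**Figure D4:**
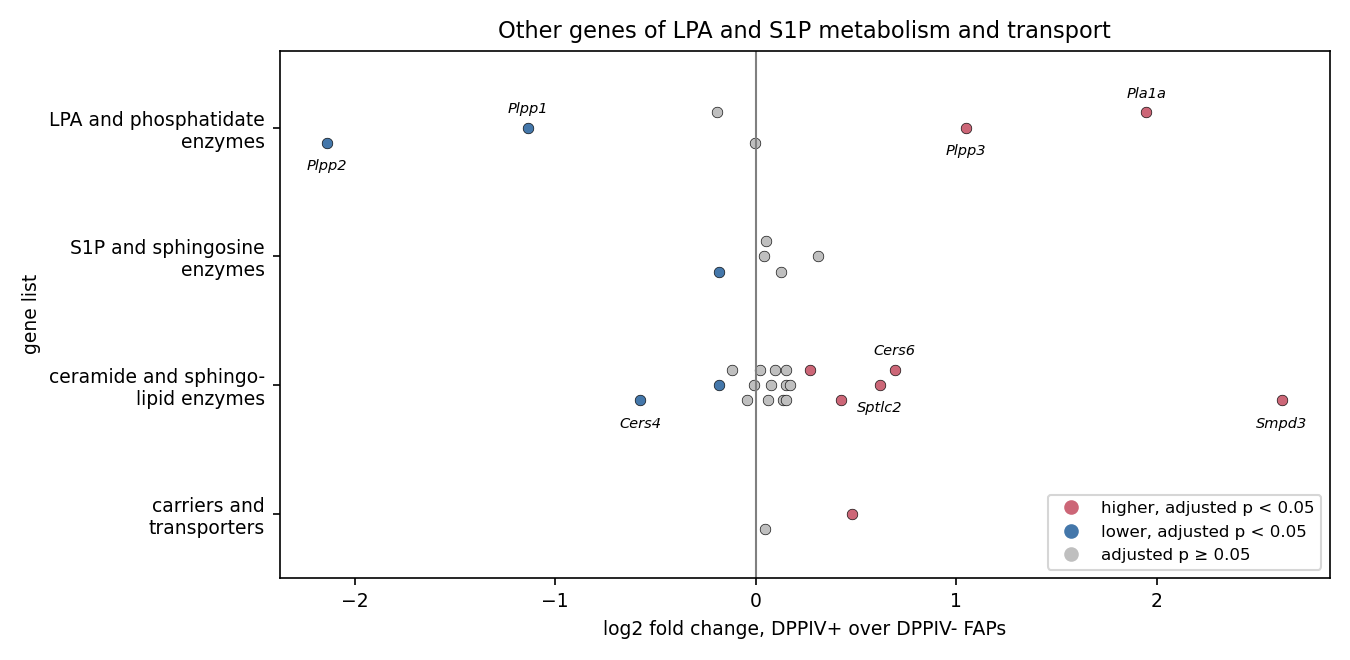
Log2 fold change of DPPIV+ over DPPIV- FAPs for the 32 tested genes of LPA and S1P metabolism and transport, 1 point per gene in rows by list, with a small vertical offset only to separate points (red higher and blue lower at an adjusted p under 0.05, grey otherwise). Smpd3 at 2.62 and Plpp2 at -2.14 mark the ends.

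Over the 4 libraries, the genes whose centred log2 CPM lay closest to those of S1pr3 were Eml2, Nr2f2 and Dact3, at Euclidean distances of 0.0275, 0.0332 and 0.0338, with log2 fold changes of -1.43, -1.39 and -1.43. Those closest to Lpar1 were Ptp4a2, Cyth1 and Capza1, at 0.0181, 0.0187 and 0.0194, with log2 fold changes of 0.21, 0.22 and 0.21. Likeness over 4 libraries is a description only.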

How the data were processed

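RNA of DPPIV- and DPPIV+ FAPs from 2 mice was sequenced as paired-end reads. The authors demultiplexed them with bcl2fastq 2.20, aligned them to mm10 with STAR, tallied them per annotated gene with RnaReadCounter and deposited raw read counts per gene symbol without normalization. The annotation release and strand setting are not given in the sources used here. The labels name the tibialis anterior and a NEBNext kit, while the protocols and methods describe both hindlimbs and the methods a TruSeq kit. A gene was tested if 2 or more libraries reached 2 CPM, and the populations were compared with edgeR 4.0.16 (R 4.3.3, limma 3.58.1) by TMM normalization and the quasi-likelihood F test, two-sided, in a model with mouse and population, which takes its covariates from the study. The study's filter also uses 2 CPM, and its wording can be read as requiring that level in at least 3 libraries, which was run as an alternative. P-values were adjusted by Benjamini-Hochberg over 11588 genes. The prior degrees of freedom were infinite, so the spread of a gene is that of others at its abundance, and p-values of abundant genes are very small. The standard error is the size of the log2 fold change over the square root of F. CPM use TMM-scaled totals, and ratios per mouse a prior count of 0.125. The study itself used DESeq2's Wald test with cell type and animal in the design, and here DESeq2 1.42.0 was an alternative. The sample titles give each animal number to 1 library of each population. The differences between the mice correlated at 0.415 between the populations, across genes, which are not independent replicates.

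Positions, exon lengths and overlaps are from GENCODE M21 on GRCm38, and promoters from RefSeq, which matched 8 of the 10 genes. The genes and lists were chosen with earlier results of these data known. Named pathway genes are, per list, up to 4 past the threshold with the largest change and the same direction in both mice. Receptor genes under the filter were named as counts. Beyond that rule, Cerk, Ormdl2, Smpd1, Acp6, Agk, Liph, Sgpp1, Asah1, Asah2, Acer3 and Spns2 were named as well. Marker lists covered FAPs, blood and lymphatic endothelium, haematopoietic, mural and satellite cells, tenocytes, myofibres, glia and perineurium. Downstream signalling genes are not reported individually, and reads and the study's other assays were not analysed here.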

Additional observations from a re-analysis of the deposited data

How the results depend on the processing

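S1pr2, S1pr3, S1pr1, Sphk1 and Lpar1 kept their direction in all 15 alternatives each, and S1pr3 stayed past the threshold in all 13 with a test (log2 fold change from -1.48 to -1.33). RLE and upper-quartile normalization, other filters, the likelihood ratio test and robust moderation changed no call among the 9 genes between the populations. DESeq2 called 0 members higher (1 at an unadjusted p under 0.05) and 3 lower instead of 4. It also called 8 other pathway genes higher and 6 lower, and 0 members for the mouse term. Of all genes tested, DESeq2 called 7.97% higher and 8.59% lower. With no replicate block (no mouse in the edgeR model), 0 members were higher (1 at an unadjusted p under 0.05) and 4 were lower. There 8 pathway genes were higher and 6 lower, and of all genes tested 8.64% were higher and 9.66% lower. The block thus decided the call of Lpar1 alone among the members. In edgeR's test against a 1.5-fold change, 0 members were higher (0 at an unadjusted p under 0.05), 2 lower (S1pr3 and Sphk1), and 4 pathway genes higher and 2 lower, with 0 members for the mouse term. RLE size factors gave 1 member for the mouse term instead of 3. The share of all genes called was not computed for the 1.5-fold test, the left-out libraries or the mouse term of the alternatives. Those counts therefore cannot be set against such a share. Leaving out each library in turn, in the model without the block and on the assumption that the lone library of a population varies like the others, gave 0 members higher each time, between 2 and 3 lower, between 6 and 8 pathway genes higher and between 2 and 7 lower. Genes without a call changed sign, with log2 fold changes of 0.012 for Sphk2 without the DPPIV- library of mouse 1, -0.094 for Lpar4 and 0.084 for Lpar6 without the DPPIV+ library of mouse 1, and -0.13 for Enpp2 and -0.18 for Lpar4 without the DPPIV- library of mouse 2, where 8 pathway genes were higher and 5 lower. With 1 mouse left out no test is possible, and values only were computed. The causes were not tested. With 2 mice, the spread within a population rests on 2 libraries, and Lpar2, Lpar6, Sphk1 and S1pr1 on at most 180 reads per library.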
